A study of Mus musculus with 4 samples.

Results

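The genes that encode mitochondrial ribosomal proteins were examined by subunit in primary mouse neural stem/progenitor cells (NSCs) with and without Chd5. Members were all rows of the deposited expression table whose name is Mrpl or Mrps followed by a number, with an optional letter, where Mrpl names proteins of the large subunit and Mrps those of the small subunit. This gave 79 rows of 18169, of which 50 were large-subunit rows and 29 small-subunit rows. They stand for 77 genes, since Mrpl38 and Mrpl51 had 2 rows each.

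RNA from 2 +/+ and 2 Chd5-/- cultures was sequenced, each culture from the periventricular brain of 1 newborn C57BL/6 mouse and grown with epidermal growth factor and fibroblast growth factor 2. Chd5 encodes a chromodomain helicase that remodels chromatin. The Chd5-/- cultures came from a Chd5-deficient mouse line whose allele is not described in the sources used here, and the comparison asks what loss of Chd5 does to the transcripts of cultured NSCs. The growth protocol in the labels gives postnatal day 1 for all cultures, whereas the age entries give days 1 and 2 for +/+ replicates 1 and 2 and days 3 and 4 for Chd5-/- replicates 1 and 2, so that by these entries age and genotype cannot be told apart. Values are in TPM, a unit of transcript abundance that is scaled for transcript length, and add to about the same total in each sample; the number of reads behind them is unknown. Chd5 was listed at 0.39 and 0.37 TPM in +/+ against 0.06 and 0.04 TPM in Chd5-/- samples, which did not overlap.

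Of 10 markers of neural stem and progenitor cells, 0 were under 1 TPM in all 4 samples, and their summed level was 6570 to 8010 TPM in +/+ against 3550 to 5940 TPM in Chd5-/- samples. Most of this difference lay in Fabp7, at 5891.59 and 4315.73 TPM in +/+ against 1938.77 and 3822.43 TPM in Chd5-/- samples. Without it the other 9 summed to 2120 and 2250 TPM in +/+ against 1610 and 2120 TPM in Chd5-/- samples, and of the 10 markers 5 had a higher and 5 a lower mean in Chd5-/- samples. The 3 microglial markers in the table stayed under 1 TPM in every sample. The 7 mesenchymal and endothelial markers summed to 0.70 and 0.15 TPM in +/+ against 12.8 and 0.56 TPM in Chd5-/- samples, with Col3a1 at 7.41 TPM in Chd5-/- replicate 1. The part of these cells in the values below was not tested. In RNA from whole cultures, fewer cells of a type and less RNA per cell cannot be told apart.

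Mitochondria carry their own ribosome, which translates the few messenger RNAs made from mitochondrial DNA, all of them for membrane proteins of the respiratory chain and ATP synthase. Its RNAs are transcribed inside the organelle, but every protein of it is encoded in the nucleus, translated in the cytosol and imported. Compared with its bacterial ancestor it has lost RNA and gained proteins, so that some members have a bacterial counterpart and others are specific to mitochondria. The nuclear genes are spread over the genome, here over 17 chromosomes, and are known to be served by general transcription factors such as GABP, an ETS factor, NRF1 and YY1.

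Promoters of these genes were compared with those of all genes because members that are needed in fixed proportion lie at unlinked sites. RefSeq promoter windows of GRCm38.p6, from 250 bases before to 50 bases after the start, were found for 68 member genes and 27025 genes in all. The ETS core CCGGAAG stood on either strand in 36.8% of member genes and 9.93% of all genes. The YY1 string AAGATGGC stood in 17.6% against 3.19%, and the NRF1 string GCGCATGC in 11.8% against 3.05%. The CCAAT box (CCAAT) was as frequent among members as elsewhere, at 39.7% against 41.1%, and the TATA box (TATAAA) stood in 7.35% against 15.7%. By subunit, the ETS core was in 14 of 42 large-subunit and 11 of 26 small-subunit genes, and the NRF1 string in 7 and 1 of them. These 5 strings were kept from 9 whose shares had been seen, and a match is a description of letters, not of binding. The set of all genes was not matched to the members in expression level or promoter base composition. Whether the contrasts are particular to the members was not tested.

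The 5 promoters below show the range of these features in members whose values lay far apart. Mrpl17 was chosen after its values were seen because its window holds both the ETS core and the NRF1 string. Mrps21 was the small-subunit gene with the smallest p, Mrps22 and Mrpl57 were the most clearly lower genes of each subunit, and Mrpl23 was the member with the smallest p. Capitals mark the ETS, YY1 and NRF1 strings on either strand. Of the ETS core, the windows of Mrpl17, Mrps21, Mrps22 and Mrpl57 have a copy and that of Mrpl23 has none. The Mrpl23 window, placed by the RefSeq start, lies wholly inside the gene span given below (142532686 to 142540747). Sequence before that span was not searched, so the lack of a string holds for this window only.
Mrpl17: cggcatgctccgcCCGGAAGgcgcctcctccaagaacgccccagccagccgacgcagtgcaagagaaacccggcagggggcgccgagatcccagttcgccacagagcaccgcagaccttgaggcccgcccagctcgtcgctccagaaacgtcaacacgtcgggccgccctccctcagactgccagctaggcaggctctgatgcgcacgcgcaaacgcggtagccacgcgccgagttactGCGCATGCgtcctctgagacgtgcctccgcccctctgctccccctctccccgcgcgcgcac
Mrps21: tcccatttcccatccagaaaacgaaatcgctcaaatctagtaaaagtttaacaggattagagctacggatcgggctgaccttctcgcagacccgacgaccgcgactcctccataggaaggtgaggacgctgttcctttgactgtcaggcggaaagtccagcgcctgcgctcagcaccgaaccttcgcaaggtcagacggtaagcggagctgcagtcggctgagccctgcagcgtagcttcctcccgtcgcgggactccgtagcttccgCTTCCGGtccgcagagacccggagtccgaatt
Mrps22: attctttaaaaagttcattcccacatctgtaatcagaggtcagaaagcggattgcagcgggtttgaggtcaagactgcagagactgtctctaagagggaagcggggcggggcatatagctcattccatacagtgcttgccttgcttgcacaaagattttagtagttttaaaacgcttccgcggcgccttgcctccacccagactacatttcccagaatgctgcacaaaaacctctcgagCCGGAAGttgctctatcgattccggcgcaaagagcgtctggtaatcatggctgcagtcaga
Mrpl57: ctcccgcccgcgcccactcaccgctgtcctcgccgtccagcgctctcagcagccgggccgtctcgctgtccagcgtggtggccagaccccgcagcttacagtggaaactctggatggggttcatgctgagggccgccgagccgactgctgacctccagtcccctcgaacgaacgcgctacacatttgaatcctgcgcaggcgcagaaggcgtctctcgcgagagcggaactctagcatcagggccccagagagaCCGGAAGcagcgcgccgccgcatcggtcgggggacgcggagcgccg
Mrpl23: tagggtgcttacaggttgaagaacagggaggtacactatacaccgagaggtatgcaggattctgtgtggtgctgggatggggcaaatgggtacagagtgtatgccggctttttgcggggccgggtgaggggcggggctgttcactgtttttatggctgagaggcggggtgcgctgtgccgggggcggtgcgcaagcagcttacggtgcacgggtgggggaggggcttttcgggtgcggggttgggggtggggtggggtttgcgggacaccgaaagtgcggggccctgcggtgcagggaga

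The windows are chr7:105811038-105811337 on the minus strand for Mrpl17, chr3:95871465-95871764 on the minus strand for Mrps21, chr9:98601630-98601929 on the minus strand for Mrps22, chr14:57825989-57826288 on the plus strand for Mrpl57 and chr7:142532782-142533081 on the plus strand for Mrpl23. The ETS core thus stood before genes with higher and with lower values in Chd5-/- NSCs. The median log2 fold change was 0.23 over members with it and 0.14 over members without it. It was 0.51 with and 0.16 without the YY1 string, 0.53 and 0.14 for the NRF1 string, 0.075 and 0.23 for the CCAAT box, and 0.47 and 0.15 for the TATA box. These are descriptions over 25, 12, 8, 27 and 5 genes with the ETS, YY1, NRF1, CCAAT and TATA strings, with no test.

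In +/+ NSCs the members were expressed at levels from low to high. The mean of the 2 samples ranged from 1.35 to 284 TPM in the large subunit, with a median of 40.2 TPM, and from 3.19 to 339 TPM in the small subunit, with a median of 46.6 TPM. The median member ranked at the 72.5th percentile of the tested rows in the large subunit and at the 75.5th in the small, with rows from the 9.11th to the 97.2nd percentile. The 1.35 TPM and the 9.11th percentile are those of the second row of Mrpl38, whose 2 rows summed to 8.33 and 5.55 TPM. Next above the rows of Mrpl38 in the large subunit was Mrpl4, with a mean of 5.71 TPM. The most abundant large-subunit row was Mrpl42, a mitochondria-specific protein, at 297.74 and 270.12 TPM. The most abundant small-subunit row was Mrps6, the counterpart of bacterial S6, at 279.36 and 398.36 TPM, and the least abundant was Mrps11 at 3.45 and 2.93 TPM. Proteins that enter the ribosome in fixed proportion thus had transcript levels that lay far apart.

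All 79 rows passed the minimum mean of 1 TPM and were compared between genotypes with limma on log2(TPM + 1), in 1 fit over the 12576 rows that passed. A log2 fold change is the mean log2(TPM + 1) of the Chd5-/- samples minus that of the +/+ samples. With Benjamini-Hochberg adjustment over all rows, 0 members passed a threshold of 0.05, with a smallest adjusted p of 0.12 from limma, against 0.0557% of all rows. At an unadjusted p under 0.05, 20 members were higher and 1 was lower in Chd5-/- NSCs, where 21.9% of all rows were higher and 2.27% lower. That is 13 higher and 1 lower of 50 large-subunit rows and 7 higher and 0 lower of 29 small-subunit rows. Adjusted p-values given below are from this limma fit. The share of higher members was near that of the whole table. Without Chd5-/- replicate 1, 4 of 79 members had an adjusted p under 0.05 (the first row of Mrpl51 lower, Mrpl23, Mrpl28 and Mrps21 higher), against 9.92% of all rows. Without Chd5-/- replicate 2, 7 of 79 did, against 8.64% of all rows, so both shares were near or below that of the whole table. These are fits where the lone Chd5-/- sample is assumed to vary like the +/+ samples.

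The median log2 fold change was 0.22 in the large subunit and 0.15 in the small subunit, both below the median of 0.34 over all rows. This order did not hold throughout for the large subunit, whose median was 0.23 against 0.19 over all rows at a minimum mean of 10 TPM, 0.22 against 0.19 with no minimum and 0.058 against -0.054 after quantile normalization. Without Chd5-/- replicate 1 the small-subunit median was -0.070, and without Chd5-/- replicate 2 the medians were 0.44 and 0.38, both above the 0.33 over all rows. In 35 members the lower Chd5-/- value exceeded the higher +/+ value, in 11 the order was the opposite, and in 33 the genotypes overlapped, where 46.3% of all rows were wholly higher and 13.0% wholly lower. By subunit, 25 large and 10 small rows were wholly higher, and 7 large and 4 small rows wholly lower. A difference of 2-fold or more upward was found in 12 members, against 18.5% of all rows, and downward in 1, against 1.61%. The ranges of the subunits overlapped for most of their length, as the plot of every member shows.

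**Figure D1:**
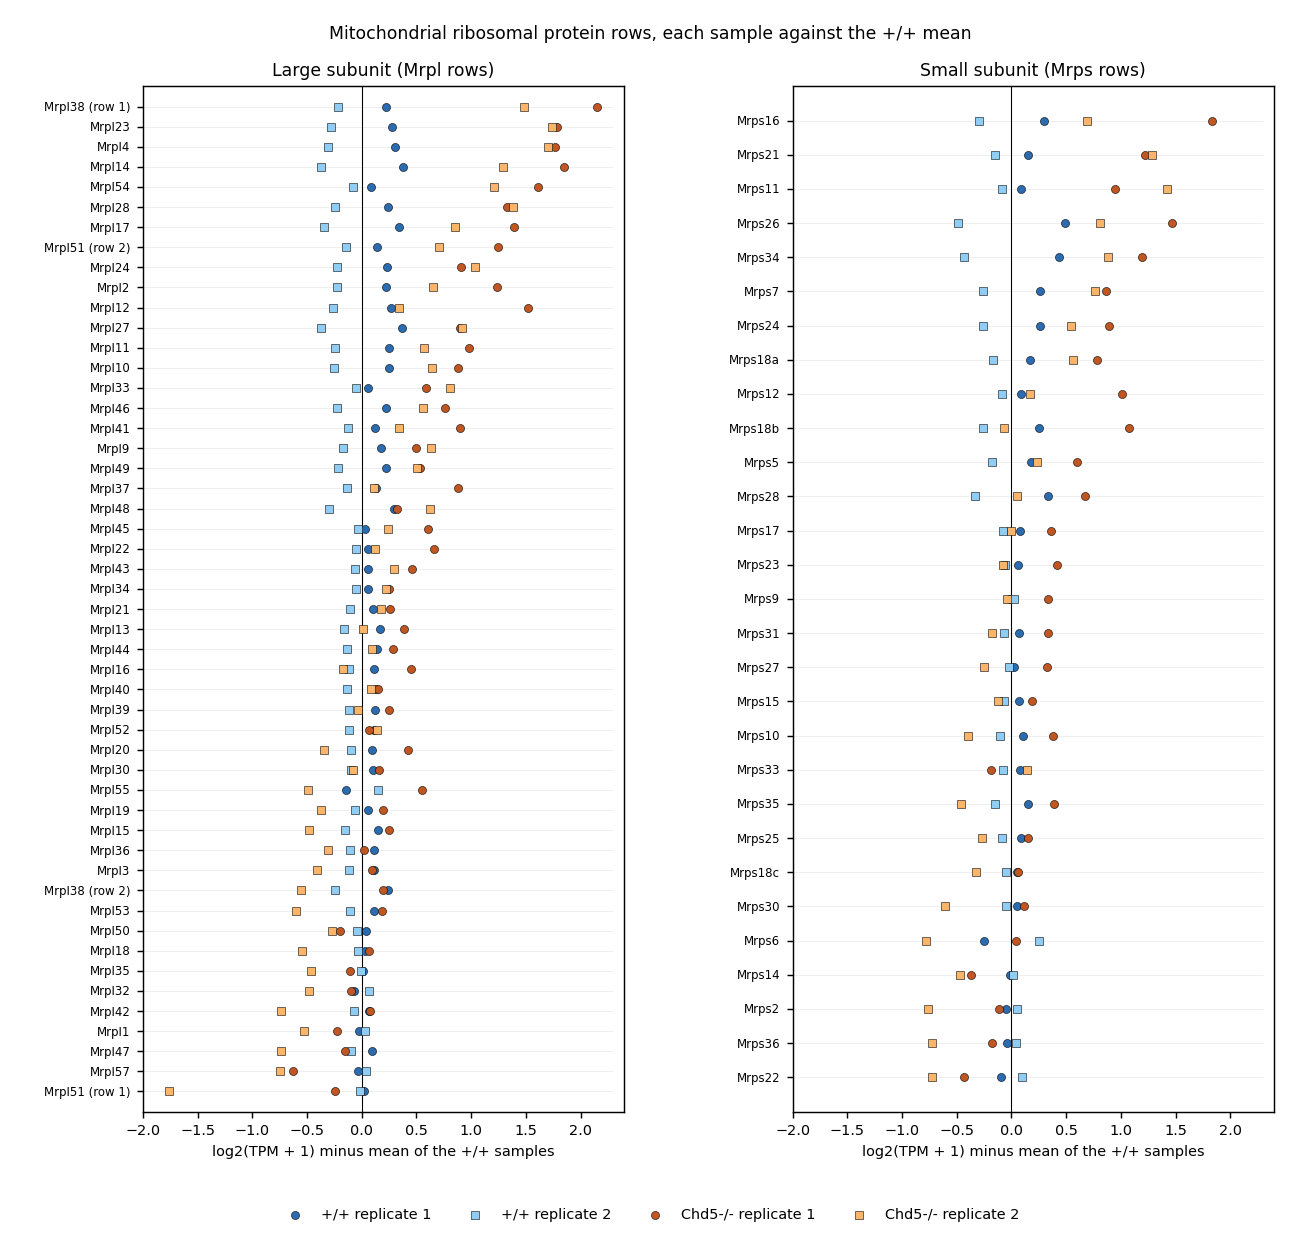
Each member row (vertical axis, ordered by its difference) with log2(TPM + 1) of the 4 samples minus the mean of the +/+ samples (horizontal axis), large subunit on the left and small subunit on the right. Blue marks are +/+ and orange marks Chd5-/- samples, circles replicate 1 and squares replicate 2. Both subunits run from rows more than 1 higher to rows lower in Chd5-/-, and the Chd5-/- circles lie to the right of the squares in 69 of 79 rows.

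Among large-subunit proteins, the largest difference was that of Mrpl38, a mitochondria-specific protein, in the first of its 2 rows (chromosome 11 of GRCm38, 116131817 to 116138868, minus strand). It stood at 6.58 and 4.59 TPM in +/+ against 27.98 and 17.23 TPM in Chd5-/- samples, a log2 fold change of 1.82 ± 0.353 (SE, adjusted p = 0.12). Both Chd5-/- values were well above both +/+ values. The second row of the name held only 1.75 and 0.96 TPM in +/+ against 1.66 and 0.58 TPM in Chd5-/- samples, which overlapped, and the sum of both rows differed by 1.62.

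Mrpl23 (chromosome 7, 142532686 to 142540747, plus strand), which lines the exit of the peptide tunnel, had the smallest p of all members. It stood at 20.81 and 13.78 TPM in +/+ against 61.05 and 58.76 TPM in Chd5-/- samples, a log2 fold change of 1.76 ± 0.278 (SE, adjusted p = 0.12). The 2 Chd5-/- samples were nearly equal, and the gap between genotypes was wider than that between the 2 +/+ samples. Mrpl4 (chromosome 9, 21002738 to 21008839, plus strand), which reaches into the wall of the same tunnel, stood at 7.10 and 4.31 TPM in +/+ against 21.29 and 20.31 TPM in Chd5-/- samples, a log2 fold change of 1.73 ± 0.315 (SE, adjusted p = 0.12).

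Mrpl14, a conserved protein on the face that meets the small subunit, stood at 8.86 and 4.86 TPM in +/+ against 26.46 and 17.60 TPM in Chd5-/- samples (log2 fold change 1.57, adjusted p = 0.126). The mitochondria-specific Mrpl54 stood at 8.88 and 7.84 TPM in +/+ against 27.64 and 20.65 TPM in Chd5-/- samples (1.41, adjusted p = 0.12). Mrpl28, the counterpart of bacterial L28, stood at 23.73 and 16.65 TPM in +/+ against 51.57 and 53.41 TPM in Chd5-/- samples (1.36, adjusted p = 0.12). None of these overlapped between genotypes. The other large-subunit rows higher at an unadjusted p under 0.05 were Mrpl17, Mrpl24, Mrpl2, Mrpl27, Mrpl10, Mrpl33 and the second row of Mrpl51, with log2 fold changes of 0.69 to 1.12. Mrpl2, which helps to form the catalytic centre, was at 0.95, and Mrpl10 and Mrpl12, which make up the flexible stalk that recruits translation factors, were at 0.76 (adjusted p = 0.184) and 0.93 (adjusted p = 0.277). Mrpl12 stood at 26.94 and 18.39 TPM in +/+ against 65.73 and 28.41 TPM in Chd5-/- samples, so most of its difference lay in Chd5-/- replicate 1.

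At the lower end of the large subunit, Mrpl57 (chromosome 14, 57826234 to 57829296, plus strand), a small mitochondria-specific protein, was the only member lower at an unadjusted p under 0.05. It stood at 15.63 and 16.48 TPM in +/+ against 10.05 and 9.17 TPM in Chd5-/- samples, a log2 fold change of -0.69 ± 0.251 (SE, adjusted p = 0.187). The samples of each genotype were close together and the genotypes did not overlap. Mrpl47, the counterpart of bacterial L29, was at -0.44, Mrpl1, part of the stalk beside the exit site, at -0.38, and Mrpl42 at -0.33, each with an unadjusted p of 0.17 or more.

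The lowest value, -1.01 (adjusted p = 0.296), was that of the first row of Mrpl51, which stood at 47.30 and 46.11 TPM in +/+ against 39.17 and 13.06 TPM in Chd5-/- samples. Its second row was at 26.71 and 21.70 TPM in +/+ against 58.52 and 39.88 TPM in Chd5-/- samples, the opposite direction (0.98, adjusted p = 0.148). Added together, the rows gave 74.0 and 67.8 TPM in +/+ against 97.7 and 52.9 TPM in Chd5-/- samples, a log2 fold change of 0.022. The table does not say what divides the 2 rows, so the summed Mrpl51 transcript differed by less than the spread between samples while the 2 rows had opposite signs.

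**Figure D2:**
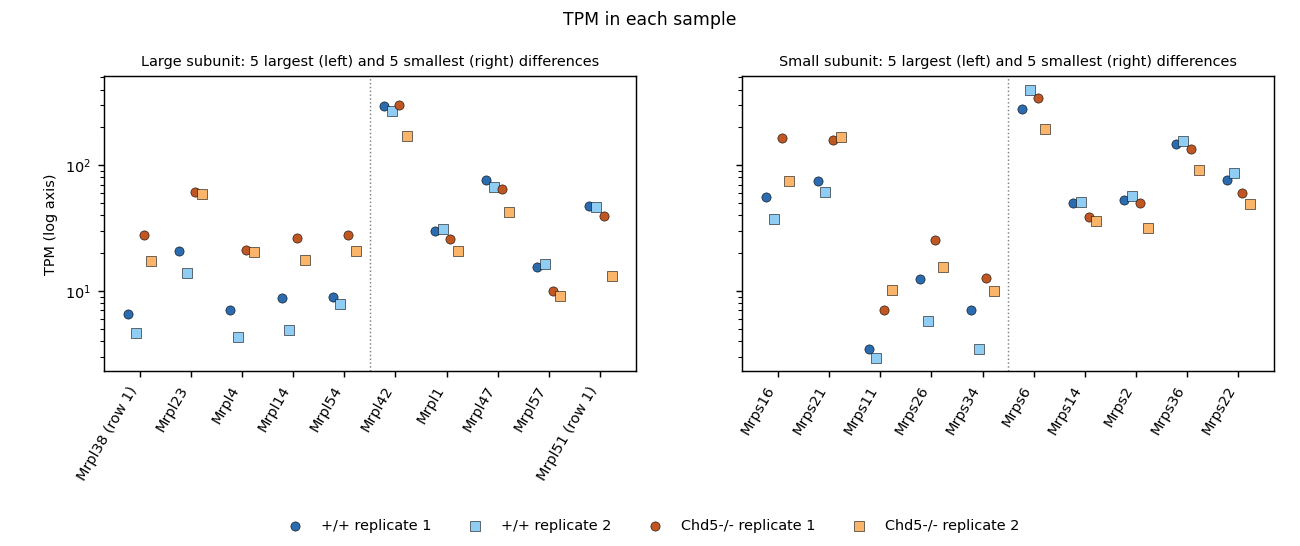
TPM in each sample (vertical log axis) for the 5 rows with the largest and the 5 with the smallest log2 fold change in each subunit, split by a dotted line. Marks are as in the plot of every member, and Mrpl23, Mrpl4 and Mrps21 show nearly equal Chd5-/- samples, while Mrps16 and the first row of Mrpl51 show Chd5-/- samples far apart.

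In the small subunit, Mrps21 (chromosome 3, 95862634 to 95871519, minus strand), the counterpart of bacterial S21, had the smallest p. It stood at 75.13 and 60.77 TPM in +/+ against 159.00 and 166.39 TPM in Chd5-/- samples, a log2 fold change of 1.25 ± 0.224 (SE, adjusted p = 0.12). The 2 Chd5-/- samples were close together and both lay far above the +/+ samples. Mrps16 (chromosome 14, 20389304 to 20393634, minus strand), the counterpart of bacterial S16 and needed for assembly of the subunit, had a similar log2 fold change of 1.26 with a larger error (0.446, adjusted p = 0.18). It stood at 56.12 and 37.06 TPM in +/+ against 165.02 and 74.38 TPM in Chd5-/- samples.

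Mrps11, which binds RNA on the platform of the subunit, was at 3.45 and 2.93 TPM in +/+ against 7.08 and 10.20 TPM in Chd5-/- samples (1.19, adjusted p = 0.134). The mitochondria-specific Mrps26 was at 12.34 and 5.77 TPM in +/+ against 25.28 and 15.63 TPM in Chd5-/- samples (1.14, adjusted p = 0.202). Mrps34, also mitochondria-specific, was at 7.08 and 3.44 TPM in +/+ against 12.73 and 10.05 TPM in Chd5-/- samples (1.04, adjusted p = 0.193). None of the 3 overlapped between genotypes, though the 2 +/+ samples of Mrps26 and Mrps34 differed nearly as much as their genotypes. Mrps7, which helps to shape the head of the subunit, was at 0.81 (adjusted p = 0.169). Mrps12, the counterpart of the bacterial protein at the decoding site, was at 0.59 (adjusted p = 0.348).

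Lower values in the small subunit were smaller in size. Mrps22 (chromosome 9, 98588730 to 98601660, minus strand), a mitochondria-specific protein, stood at 75.80 and 86.73 TPM in +/+ against 59.87 and 48.73 TPM in Chd5-/- samples, a log2 fold change of -0.58 ± 0.232 (SE, adjusted p = 0.212). The genotypes did not overlap. Mrps14 was at 49.67 and 50.65 TPM in +/+ against 38.52 and 35.94 TPM in Chd5-/- samples (-0.42, adjusted p = 0.29), which did not overlap either. Mrps2, at -0.44, and Mrps6, at -0.37, had Chd5-/- replicate 1 close to or within the +/+ values and replicate 2 below them, with Mrps6 at 343.60 and 193.97 TPM in Chd5-/- samples. Mrps6 shares its strand and part of its span with Slc5a3, so reads of the 2 genes may have been divided between them.

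Names and places differ for a few members. Mrps18a and Mrps30 carry small-subunit names but sit in the large subunit, and Mrps36 is now known as a subunit of the oxoglutarate dehydrogenase complex rather than of the ribosome. Of the 3 paralogs of bacterial S18, Mrps18a was at 49.88 and 39.01 TPM in +/+ against 76.66 and 65.81 TPM in Chd5-/- samples (0.67, adjusted p = 0.184). Mrps18b was at 25.17 and 17.35 TPM in +/+ against 45.01 and 19.87 TPM in Chd5-/- samples (0.50, adjusted p = 0.52). Mrps18c, the most abundant of the 3, was at 159.31 and 148.75 TPM in +/+ against 160.24 and 122.88 TPM in Chd5-/- samples (-0.13, adjusted p = 0.75), with overlap in Mrps18b and Mrps18c. Mrps30 was at -0.25 (adjusted p = 0.646) and Mrps36 at -0.45 (adjusted p = 0.347).

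Sorted by place, the medians were 0.22 over 52 large-subunit rows and 0.16 over 26 small-subunit rows. Members with a bacterial counterpart had a median of 0.22 over 46 rows with 14 higher and 0 lower at an unadjusted p under 0.05. Mitochondria-specific members had a median of 0.14 over 32 rows with 6 higher and 1 lower. Over all rows these shares were 21.9% higher and 2.27% lower, with a median of 0.34. Neither division separated the members, and the range within each class was wider than the difference between classes.

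The members differed in a shared direction between replicates of 1 genotype. Chd5-/- replicate 1 was above Chd5-/- replicate 2 in 69 of 79 members (87.3%), by a median of 0.38 on the log2 scale, whereas it was above in 49.8% of all rows. Between the +/+ samples, replicate 1 was above replicate 2 in 69 members as well, by a median of 0.22, against 65.9% of all rows. The members' TPM added to 4565 and 4135 in +/+ against 5601 and 4336 in Chd5-/- cultures, so Chd5-/- replicate 1 stood apart and Chd5-/- replicate 2 lay between the +/+ samples. The Chd5-/- cultures also differed in markers of cell types. In replicates 1 and 2, markers of neurons summed to 375 and 806 TPM (512 and 520 TPM in +/+), of which Map2 held 365.59 and 784.89 TPM. Those of astrocytes summed to 514 and 1110 TPM (585 and 973 TPM) and those of the oligodendrocyte lineage to 504 and 928 TPM (571 and 631 TPM). Stem and progenitor markers summed to 3550 and 5940 TPM in the same order. The sums of all 4 lists were thus lower in Chd5-/- replicate 1, where the members were higher. By gene, replicate 1 was above replicate 2 in 0 of 6 astrocyte, 1 of 7 oligodendrocyte-lineage (Olig2) and 2 of 10 stem and progenitor markers (Nes and Prom1). It was above in 0 of the 4 neuronal markers that reached a mean of 1 TPM, while Stmn2, below that mean, was higher in replicate 1. The 4 ependymal markers summed to 9.08 and 6.15 TPM in Chd5-/- and 2.45 and 2.63 TPM in +/+ samples. The part of these cells in the replicate pattern was not tested.

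In 39 of 79 members (49.4%) the gap between the 2 Chd5-/- samples was larger than the difference between genotypes, which was so in 47.0% of all rows. This was so in 42.0% of large-subunit and 62.1% of small-subunit rows. Of the 20 higher members, 14 had Chd5-/- replicate 1 above replicate 2. Proteins of the cytosolic ribosome and of respiratory complex I, both added for comparison after the table was seen, differed in this. The 77 cytosolic ribosomal protein rows had Chd5-/- replicate 1 above replicate 2 in 13.0%. Their median difference between genotypes was 1.03, with 61 higher at an unadjusted p under 0.05, against 21.9% of all rows. With the GC and length trends described below removed, their median was 0.50 with 23 higher, against 4.95% of all rows. After median-of-ratios scaling, also described below, it was 0.65 with 37 higher, against 1508 of 12576 rows in all. The 37 complex I rows, encoding the largest respiratory complex, had Chd5-/- replicate 1 above replicate 2 in 89.2%, as the members did. Their median difference between genotypes was 0.36. These shares are descriptions of 2 cultures of a genotype.

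**Figure D3:**
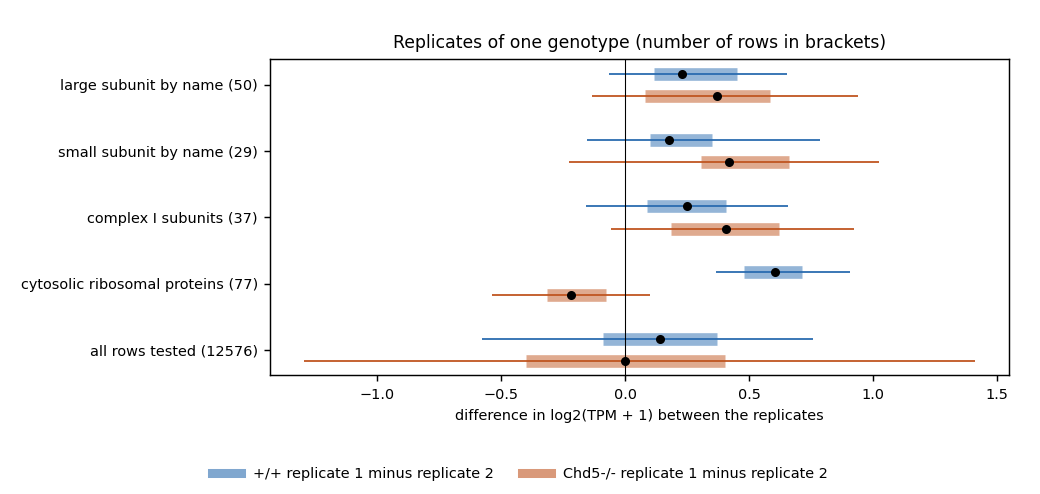
Difference in log2(TPM + 1) between replicate 1 and replicate 2 of a genotype (horizontal axis) for rows of 5 groups (vertical axis). Dots are medians, thick bars the interquartile range and thin lines the 5th to 95th percentile, in blue for +/+ and orange for Chd5-/- samples. The Chd5-/- medians are 0.37 and 0.42 in the mitochondrial subunits and -0.22 for cytosolic ribosomal proteins.

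Ribosomal proteins whose names do not begin with Mrp were looked at alongside. Of 6 in the table, 3 were higher at an unadjusted p under 0.05 and 0 lower, where 21.9% and 2.27% of all rows were. Gadd45gip1 was at 2.41 and 1.14 TPM in +/+ against 7.18 and 6.44 TPM in Chd5-/- samples (1.53, adjusted p = 0.126). Aurkaip1 was at 1.18 (adjusted p = 0.122) and Ict1, a release factor that became part of the large subunit, at 1.05 (adjusted p = 0.153). The GTP-binding protein Dap3 of the small subunit was at 0.29 (adjusted p = 0.459), Chchd1 at 0.22 (adjusted p = 0.742) and Ptcd3 at -0.54 (adjusted p = 0.286). With the GC and length trends described below removed, Gadd45gip1, Aurkaip1 and Ict1 were at 0.77, 0.27 and 0.69. Mrp63 is not reported under that name, since its row carries the name Mrpl57.

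Other steps of mitochondrial gene expression were mixed in direction as well. Of 28 factors that assemble or modify the mitochondrial ribosome, 5 were higher and 0 lower at an unadjusted p under 0.05, with a median of 0.44. The share of higher factors was thus below the 21.9% of all rows, whose median was 0.34. The 5 higher were the GTPase Mtg2 (1.46, adjusted p = 0.12), the membrane protein Mpv17l2 (1.19), the RNA-binding GTPase Eral1 (1.11), the RNA methyltransferase Ftsj2 (1.10) and the assembly factor Rbfa (0.98). With the GC and length trends described below removed, these were at 0.64, 0.12, 0.48, 0.26 and -0.037 in the same order. Of the 28 factors, 1 was then higher and 2 lower, against 4.95% and 5.66% of all rows, with a median of -0.087. Of 24 translation factors, 1 was higher, the elongation factor Tufm (35.37 and 23.79 TPM in +/+, 79.07 and 62.08 TPM in Chd5-/- samples, 1.24, adjusted p = 0.122). The 1 lower was Pdf, which removes the formyl group from new peptides (46.83 and 40.09 TPM in +/+, 29.47 and 12.29 TPM in Chd5-/- samples, -1.14, adjusted p = 0.198). The median over the 24 was 0.15, below that of all rows, as was the share of higher factors. With the same trends removed, Tufm was at 0.38 and Pdf at -2.0, and the median over the 24 was -0.19.

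Of 20 regulators of mitochondrial DNA and RNA, 2 were higher and 1 lower, against 21.9% and 2.27% of all rows, with a median of 0.13. Polrmt, the mitochondrial RNA polymerase, was at 0.71 and 0.64 TPM in +/+ against 2.46 and 2.37 TPM in Chd5-/- samples (1.03, adjusted p = 0.166, and 0.058 with GC and length trends removed). Its +/+ mean of 0.675 TPM was under the minimum of 1 TPM. It was tested only because of its higher Chd5-/- values, so its direction is not read as a result. Peo1, the helicase of mitochondrial DNA, was at 0.94 (adjusted p = 0.161, and 0.33 with the trends removed). Pnpt1, which degrades RNA, was at -0.86 (adjusted p = 0.173, and -0.69 with the trends removed). The factors whose strings were searched in the promoters did not pass at an unadjusted p under 0.05, with Gabpa at -0.13, Nrf1 at 0.55 and Yy1 at -0.25.

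The log2 fold change followed the GC content of the transcript, taken from the longest annotated transcript of each gene. For Mrpl17 that transcript is 7300 bases long in a gene that spans 105803206 to 105811099. Both rows of Mrpl38, and both of Mrpl51, were given the same GC content and length. Whether these transcripts are the ones present in the cultures was not tested, and the trend removal below rests on them. Across the 79 members the rank correlation was 0.535, and across 12103 rows with a value it was 0.617, where points share the 4 samples and are not replicates. Above the median GC content of the members, the 39 rows had a median difference of 0.50, with 34 positive and 5 negative. The 40 others had a median of -0.029, with 19 positive and 21 negative. At an unadjusted p under 0.05, 14 of the 39 were higher and 0 lower, and 6 of the 40 were higher and 1 lower. Over all rows, 21.9% were higher and 2.27% lower. Mrpl38, Mrpl4, Mrpl14 and Mrpl54 had GC contents of 59.4% to 60.4%, whereas Mrpl57 had 42.3% and Mrps14 39.6%. Other members departed from the trend. Mrpl17, at 43.0% GC, had a log2 fold change of 1.12, and Mrps16, at 47.5%, had 1.26. Mrpl34, at 58.3%, had 0.23, and the second row of Mrpl38 had -0.18.

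With trends in GC content and length removed from each sample, the medians were -0.14 in the large and -0.22 in the small subunit, against -0.015 over all rows. Then 6 members were higher and 15 lower at an unadjusted p under 0.05, against 4.95% and 5.66% of all rows. The 6 higher were Mrpl23 (1.11), Mrpl17, the second row of Mrpl51, the first row of Mrpl38 (0.80), Mrpl4 (0.70) and Mrpl24, all of the large subunit and all among the 20 higher as deposited. The 15 lower held 10 large-subunit rows: Mrpl18, Mrpl20, Mrpl21, Mrpl34, Mrpl36, Mrpl40, Mrpl52 (-0.92), Mrpl53, Mrpl57 and the second row of Mrpl38 (-1.19). The 5 with small-subunit names were Mrps2, Mrps6, Mrps15, Mrps22 and Mrps36. The 2 rows of Mrpl38 thus had opposite signs in this setting. Scaling by the median of ratios between samples gave medians of -0.14 and -0.22, with 9 members higher and 9 lower, against 12% and 10.4% of all rows. After quantile normalization 10 members were higher and 4 lower, against 8.77% and 8.14%, and with the 20 most abundant rows left out of the scaling 11 were higher and 5 lower, against 14.9% and 6.51%. Higher as deposited, with the trends removed and after median-of-ratios scaling were Mrpl23, Mrpl24, Mrpl4 and the first row of Mrpl38. Mrpl57, Mrps2, Mrps22 and Mrps36 were lower both with the trends removed and after median-of-ratios scaling. Mrps21 kept a positive value in both, at 0.46 with the trends removed and 0.885 after the scaling, whereas Mrps34 and Mrps18a turned to -0.034 and -0.25 with the trends removed.

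**Figure D4:**
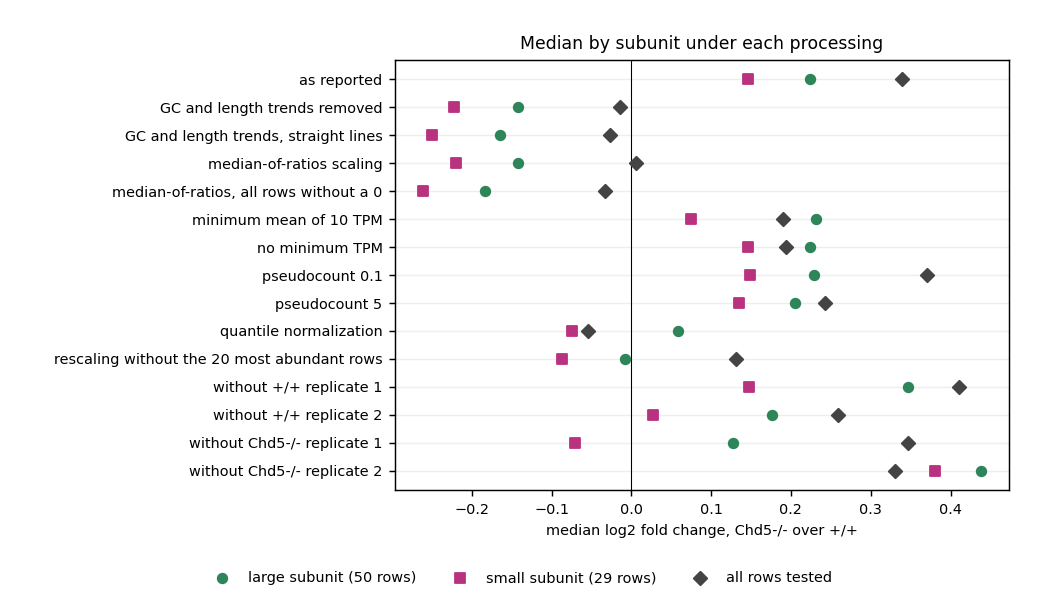
Median log2 fold change of the large-subunit rows (circles), the small-subunit rows (squares) and all tested rows (diamonds) on the horizontal axis under each processing on the vertical axis. Both subunit medians are above 0 as reported and below 0 after median-of-ratios scaling, with GC and length trends removed and after the 20 most abundant rows were left out of the scaling, and they are higher without Chd5-/- replicate 2 (0.44 and 0.38) than without Chd5-/- replicate 1 (0.13 and -0.070).

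Many members share their start region with another gene. Of the 77 genes, 23 (29.9%) had a protein-coding gene that starts within 1000 bases on the opposite strand and runs the other way, against 7.91% of 21924 protein-coding genes. Starts that cross by up to 200 bases were included. The log2 fold change was positive in 18 of 23 members and 20 of 23 neighbours, against 70.4% of all rows, and nothing is read from shared signs. Across the 23 pairs the rank correlation was 0.67 when Mrpl51 was taken as the sum of its rows and 0.60 with its first row alone. The neighbours had a median of 0.57.

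Mrpl54 and Apba3, whose starts lie 26 bases apart, were at 1.41 and 1.21. Mrps34 and Eme2, 29 bases apart, were at 1.04 and 1.18, and Mrpl2 and Klc4, 207 bases apart, at 0.95 and 1.64. Apba3 stood at 0.86 and 0.64 TPM in +/+ against 3.7 and 2.48 TPM in Chd5-/- samples. Eme2 stood at 1.06 and 0.81 TPM against 3.48 and 3.26 TPM. These neighbours, with Lrrc46 and Sars2, had a +/+ mean under 1 TPM and passed the minimum only through their Chd5-/- values. Their positive signs were thus fixed by the minimum, and nothing is read from them or from their part in the rank correlation. Mrpl49 was at 0.52 beside Fau, which encodes a fusion of a ubiquitin-like protein with a cytosolic ribosomal protein, at 2.18. Mrpl51 was at 0.022 beside Ncapd2 at 1.56, and Mrpl57 at -0.69 beside Ska3 at -0.063. Members and neighbours share the 4 samples and the local base composition, whose part in this was not tested. Further, 26 member genes overlap another protein-coding gene, 4 of them on the same strand, where reads cannot always be told apart. Mrpl46 and Mrps11, 1 member of each subunit, overlap each other by 413 bases on opposite strands and were at 0.66 and 1.19. The annotation also holds 5 pseudogenes named after members, whose reads may have been divided from theirs.

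**Figure D5:**
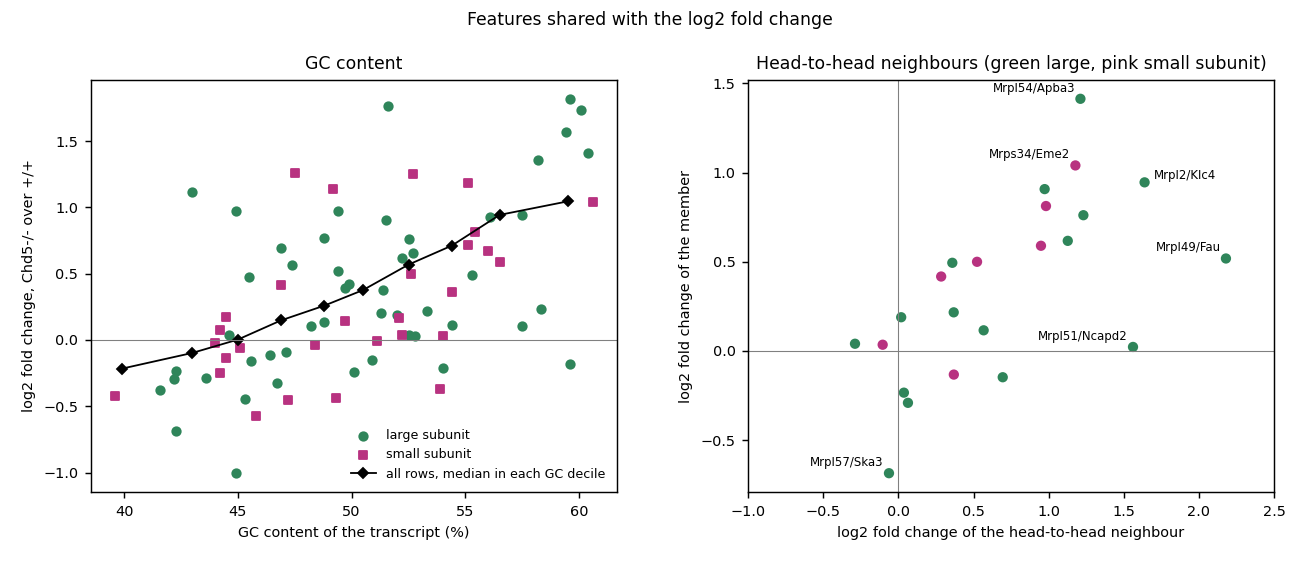
Left, log2 fold change (vertical) against GC content of the transcript in percent (horizontal) for large-subunit (circles) and small-subunit (squares) rows, with the median of all rows in each decile of GC content as a black line that runs from -0.22 to 1.05. Right, log2 fold change of each member (vertical) against that of its head-to-head neighbour (horizontal) for 23 pairs, most of them positive on both axes.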

How the data were processed

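RNA was sequenced from 2 +/+ and 2 Chd5-/- NSC cultures from stranded libraries of polyadenylated RNA. The authors deposited 1 table of TPM values for 18169 rows, and its columns were matched to the samples through their names. The submitters' processing notes name Bowtie2 2.2.3, RSEM 1.2.20 and mm10, and the gene annotation is not given in the sources used here. TPM keeps no depth, so no counting error or count test could be had, and precision rests on 2 samples per genotype. The 20 most abundant rows held 32.4% and 35.6% of the TPM in +/+ and 21.6% and 22.8% in Chd5-/- samples. The other rows together thus held a larger share in Chd5-/- samples. Rescaling without the 20 rows moved the median log2 fold change over all rows tested from 0.34 to 0.13.

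From the deposited TPM, log2(TPM + 1) was fitted with limma 3.58.1 in R 4.3.3 (eBayes with a trend, two-sided) over the 12576 rows whose mean reached 1 TPM, with Benjamini-Hochberg adjustment over all of them. The fit was tested on simulated data. GC content, length and positions are from GENCODE M21 of GRCm38 and were found for 96.2% of the rows tested. Trends with them were removed per sample by loess (span 0.5). Other alternatives were pseudocounts of 0.1 and 5, no minimum or one of 10 TPM, quantile normalization, median-of-ratios scaling, scaling to the total of all but the 20 most abundant rows, eBayes without a trend or robust, the replicate number as a block, subunit by place, and leaving out each sample. Tables were made with Python 3.11.15.

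Members, lists and tests were chosen with earlier results of these data known. The named genes were, in each subunit, the 5 largest and 5 smallest log2 fold changes and the highest and lowest levels, then the 6 smallest p of all members, the S18 paralogs, Mrps30, Mrps36, Chd5, proteins of other names, and listed mitochondrial genes with an unadjusted p under 0.05. Others, the comparison with cytosolic ribosomal proteins and complex I, the motifs and the neighbours were added after the values were seen. The first forms of 2 alternatives, median-of-ratios factors from all rows without a 0 and loess with local straight lines, were replaced after their results were seen, and both forms are given in the closing section.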

Additional observations from a re-analysis of the deposited data

How the results depend on the processing

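TPM gives no depth, and 2 samples per genotype limit every p. The direction of the subunit medians depended on the scaling between samples. The large-subunit median was 0.22 as reported, -0.14 with GC and length trends removed (-0.16 with local straight lines), -0.14 after median-of-ratios scaling (-0.18 with factors from all rows without a 0) and -0.008 after rescaling without the 20 most abundant rows. The small-subunit median was 0.15 as reported and -0.22 (-0.25), -0.22 (-0.26) and -0.087 in the same order, and -0.074 after quantile normalization, under which the large-subunit median stayed positive (0.058). The cause was not tested. The forms in brackets, here and below, were run first and replaced after their results were seen.

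Members at an unadjusted p under 0.05 numbered 20 higher and 1 lower as reported. They were 6 and 15 with the trends removed (5 and 15 with local straight lines), 9 and 9 after median-of-ratios scaling (8 and 11 with factors from all rows without a 0), 10 and 4 after quantile normalization and 11 and 5 after rescaling. The lower count was 2 without a minimum TPM and 0 with a minimum of 10 TPM. Over all rows, 2748 higher and 285 lower became 599 and 685 (565 and 751), 1508 and 1311 (1391 and 1507), and 1103 and 1024 after quantile normalization, with 819 lower after rescaling and 1512 higher at a minimum of 10 TPM. Members wholly higher went from 35 to 14 (15) with the trends removed and to 23 (23) after median-of-ratios scaling. Members wholly lower went from 11 to 34 (35) and 31 (35), to 18 after quantile normalization and to 24 after rescaling.

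With 1 sample left out, the large-subunit median ranged from 0.13 to 0.44, the small-subunit median from -0.070 to 0.38, the higher members from 6 to 29, the lower members from 0 to 9, the wholly higher from 35 to 62, the wholly lower from 12 to 33, and all rows from 723 to 3493 higher and 81 to 943 lower. Higher members numbered 13 without +/+ replicate 1 and 6 without +/+ replicate 2. Of the members named by the rule above, Mrps34 (-0.034, or -0.13 with straight lines), Mrps18a (-0.25, -0.28) and Mrps18b (-0.16, -0.19) turned sign with the trends removed. With 1 sample left out, those that turned sign were Mrps18b (-0.070 to 1.07), Mrpl42 (-0.73 to 0.079), Mrps18c (-0.32 to 0.058), Mrps30 (-0.61 to 0.12), Mrps6 (-0.78 to 0.042) and the second row of Mrpl38 (-0.56 to 0.20). In each of these ranges the positive end is without Chd5-/- replicate 2 and the negative end without Chd5-/- replicate 1. Of the 53 members positive as reported, 26 stayed positive with the trends removed. Among the others were Mrps12 (-0.36), Mrpl2 (-0.041), Mrps7 (-0.0195) and Mrpl46 (-0.0069).

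The replicate numbers were treated as sharing only a number, since the labels name no shared batch. The deviations of same-numbered samples had a correlation of -0.152 over 12576 rows. With 2 samples per genotype this cannot exclude a shared batch. With the number as a block, 19 members were higher and 0 lower, with 178 rows lower in all. With the block and the trends removed, 6 members were higher and 9 lower, and 424 and 430 rows in all, with medians of -0.14 and -0.22 and Mrps34, Mrps18a and Mrps18b at -0.034, -0.25 and -0.16. Pseudocounts, eBayes settings and subunit by place turned no sign of a median.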
